A study of Mus musculus with 20 samples.

Results

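miR-199a and miR-199a*, the strands of the microRNA (miRNA) miR-199a, were measured in lung, liver, kidney, heart and spleen of klotho(-/-) and wild-type mice. The members were the 2 probes that carry these names, out of 200 mouse miRNA probes on a Genopal-MICM DNA chip. The klotho(-/-) animals were male, 5 weeks old and deficient in klotho in the whole body, and were obtained from CLEA Japan, whereas the wild-type animals were male littermates of the same age. Klotho encodes a membrane protein that acts with fibroblast growth factor 23 in phosphate handling, and mice without it age early. There were 20 arrays, 2 for each tissue of each genotype, hybridized with small RNA of 2 individual mice by the study's legend. The p-values of the limma model of all arrays rest on the spread between the 2 mice of a group, pooled over 10 groups. Those of the strand ratio come from permuting arrays. The chip has no probe for the mRNA of klotho, and the genotype labels were therefore not checked.

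An miRNA precursor folds back into a hairpin, and Dicer cuts a duplex out of it. Either strand can then be loaded into an Argonaute protein and guide it to mRNAs that pair with the seed of the strand, its bases from position 2 to 8. The older nomenclature marked the strand thought to be the minor one with an asterisk, and the current one names strands by their arm. The miR-199a strands are known as miRNAs of fibroblasts and other mesenchymal cells, and in mouse a transcript named Dnm3os, which runs antisense within the gene of dynamin 3, carries one of their hairpins together with miR-214. The 5p strand is known to repress caveolin 1 in human lung fibroblasts, and the 3p strand to repress the kinase mTOR in human liver cancer cells.

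The mature strands are shown because their seeds decide what each can pair with, and capitals mark the seed. They were taken from RefSeq (GRCm38.p6), where miR-199a corresponds to the 5p arm and miR-199a* to the 3p arm.
miR-199a (miR-199a-5p): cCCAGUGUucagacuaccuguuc
miR-199a* (miR-199a-3p): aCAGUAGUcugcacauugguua
The 2 seeds differ. The seed of miR-199a was found in 1 of 1679 mature mouse miRNA names of the table, its own, and that of miR-199a* in 2, since miR-199b-3p has the same 22 bases in full. A probe for miR-199a* therefore cannot tell apart the products of 3 genes, Mir199a-1, Mir199a-2 and Mir199b. The full miR-199a sequence occurs in the hairpins of the first 2. The table lists no 5p strand of Mir199b, but the hairpin of Mir199b holds a stretch that has the same seed and differs from miR-199a in 1 of 23 bases. Whether the miR-199a probe also binds that strand is not known, since its sequence was not used here. The hairpins are shown with the mature strands listed above in capitals.
Mir199a-1: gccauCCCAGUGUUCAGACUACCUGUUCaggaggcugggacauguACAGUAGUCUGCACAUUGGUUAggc
Mir199a-2: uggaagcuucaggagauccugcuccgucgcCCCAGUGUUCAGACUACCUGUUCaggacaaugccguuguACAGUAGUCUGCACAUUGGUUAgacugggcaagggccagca
Mir199b: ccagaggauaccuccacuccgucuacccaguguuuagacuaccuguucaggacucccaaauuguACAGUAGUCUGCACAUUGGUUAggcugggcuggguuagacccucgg
Mir199a-1 lies at chr9:21496495-21496564 on the minus strand inside Dnm2, the gene of dynamin 2. Mir199a-2 lies at chr1:162217814-162217923 on the plus strand, where Dnm3 and Dnm3os overlap it and Mir214 is within 10 kb. Mir199b lies at chr2:32318460-32318569 on the plus strand inside Dnm1, the gene of dynamin 1. miR-199b and miR-214 were not among the 200 probes, so the array does not show which of the hairpins the signals came from.

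The arrays differed in brightness, with a summed background-corrected signal of 4299 to 57561 and 52 to 113 probes at a signal of at least 10. Known tissue miRNAs followed the labels. The hepatocyte miRNA miR-122a took 37.8 to 39.5% of the signal of liver arrays, against at most 0.117% elsewhere, and 4 striated muscle miRNAs took 35.8 to 41.2% in heart, against at most 1.14%. For 3 leukocyte miRNAs the share was 2.74 to 7.94% in spleen and at most 0.654% elsewhere. The klotho(-/-) spleen arrays agreed least with each other, with r = 0.778 over the probes tested, against 0.937 to 0.995 in the other 9 groups.

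Both strands were brightest in lung, intermediate in heart, kidney and spleen, and close to background in liver. In lung, miR-199a had signals of 296 and 261 in klotho(-/-) mice, against 275 and 123 in wild-type mice (arrays 1 and 2, arbitrary units, no scaling). miR-199a* had 418 and 383 in klotho(-/-) lung, against 405 and 179.6 in wild-type lung. The wild-type Lung 2 array was the low one for both strands, and the genotypes overlapped only through wild-type Lung 1. In heart, miR-199a had 85.1 and 70.7 in klotho(-/-) mice, against 80.7 and 83.7 in wild-type mice. miR-199a* had 98.9 and 85.9 in klotho(-/-) heart, against 94.9 and 96.1 in wild-type heart. In heart the wild-type values lay inside the range of the klotho(-/-) values for both strands.

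In kidney, miR-199a had 65.2 and 51.5 in klotho(-/-) mice, against 29.1 and 33.7 in wild-type mice. miR-199a* had 94.3 and 74.2 in klotho(-/-) kidney, against 43.5 and 50.7 in wild-type kidney. Both klotho(-/-) kidney arrays were above both wild-type arrays, but the whole arrays were brighter too. The ratio of summed signals of klotho(-/-) over wild-type was 1.56. In share of the summed signal, klotho(-/-) kidney had 0.271 and 0.288% for miR-199a, against 0.222 and 0.244% in wild-type kidney. For miR-199a* the shares were 0.392 and 0.415%, against 0.332 and 0.367%. In liver, miR-199a had 7.43 and 6.10 in klotho(-/-) mice, against 4.19 and 3.91 in wild-type mice. miR-199a* had 9.81 and 8.65 in klotho(-/-) liver, against 4.53 and 4.82 in wild-type liver. All 8 of these liver signals were below 10, the mean level under which a probe was not tested between the genotypes. The ratio of summed signals there was 1.88.

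**Figure D1:**
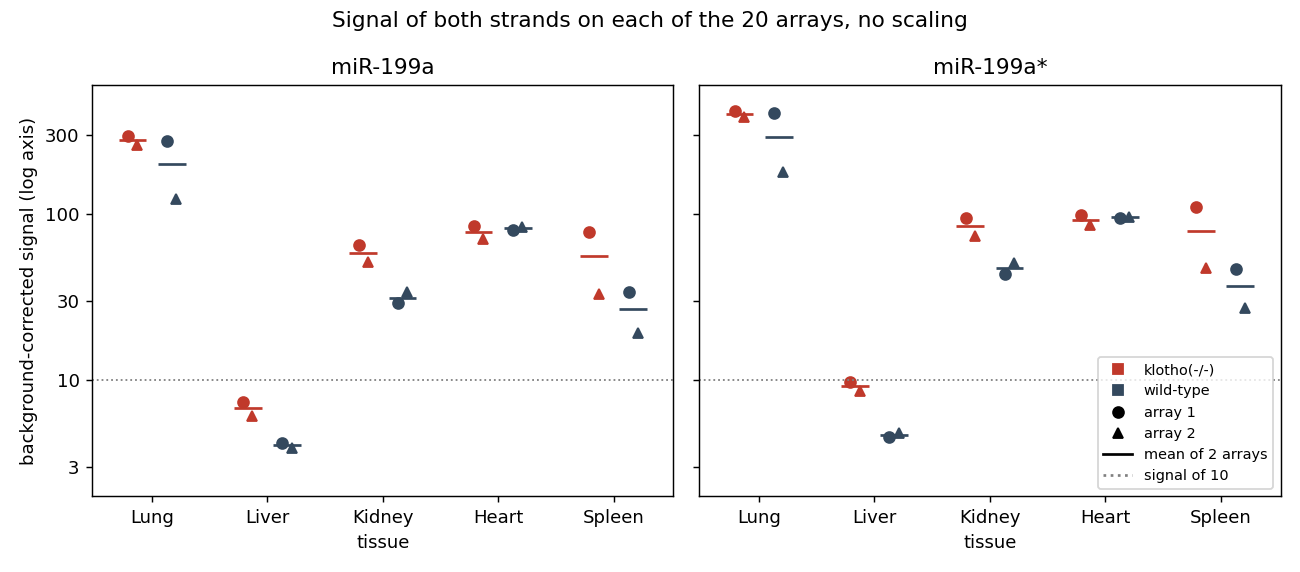
Background-corrected signal of miR-199a (left) and miR-199a* (right) on each array (vertical axis, arbitrary units, log scale) by tissue, with klotho(-/-) left of wild-type and lines at the means of 2 arrays. Lung is highest and liver lies below the dotted line at 10, and in spleen klotho(-/-) array 1 is apart from klotho(-/-) array 2.

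The place of the strands among the probes of an array changed less with brightness than their signals. miR-199a ranked 35 to 39 of 200 on the lung arrays, 40 to 44 on the heart arrays, 55 to 63 on the kidney arrays and 73 to 85 on the liver arrays. miR-199a* ranked 32 to 33 in lung, 38 to 41 in heart, 48 to 52 in kidney and 66 to 74 in liver. In spleen the ranks were wide apart. miR-199a ranked 38 and 62 on the klotho(-/-) arrays, against 62 and 67 on the wild-type arrays, and miR-199a* ranked 25 and 51 against 58 and 59. Of the 20 arrays, the rank of miR-199a* was thus best in one spleen array, klotho(-/-) Spleen 1, ahead of all lung arrays.

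The tissue levels were tested after quantile normalization over all 20 arrays, as the log2 difference of a tissue from the mean of the other 4, with the limma model and Benjamini-Hochberg adjustment over 129 probes. Both strands were higher in lung, miR-199a by 0.78 ± 0.11 (SE, adjusted p = 5.61e-05) and miR-199a* by 0.83 ± 0.16 (adjusted p = 0.000662), where 30.2% of all probes tested were higher and 31.8% lower. Both were lower in liver, with differences of -0.80 ± 0.11 for miR-199a (adjusted p = 3.38e-05) and -0.92 ± 0.16 for miR-199a* (adjusted p = 0.000233), where 41.1% of probes were lower and 20.2% higher. The 129 probes were those with a mean signal of at least 10 in any tissue. Both strands were under 10 in liver and entered through the other tissues, so their liver values were close to background. Since tissues hold different mixtures of cells, fewer cells of a type and less RNA per cell cannot be told apart in these bulk samples. In heart miR-199a was higher by 0.42 ± 0.11 (adjusted p = 0.00596), with 20.9% of probes higher and 35.7% lower, and miR-199a* differed by 0.29 ± 0.16 (adjusted p = 0.127). Kidney and spleen did not pass for either strand. The kidney differences were -0.26 (adjusted p = 0.0708) for miR-199a and -0.22 (0.283) for miR-199a*, where 23.3% of probes were higher and 20.2% lower. The spleen differences were -0.14 (adjusted p = 0.279) for miR-199a and 0.02 (0.922) for miR-199a*, where 32.6% of probes were higher and 41.9% lower.

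In the order lung, heart, spleen, kidney and liver, not all neighbours could be separated. Lung exceeded heart by 0.29 for miR-199a (adjusted p = 0.134) and by 0.43 for miR-199a* (adjusted p = 0.125), neither past the threshold, while 34.1% of probes differed between these tissues. Heart exceeded spleen by 0.44 for miR-199a (adjusted p = 0.0136, with 59.7% of probes called), and for miR-199a* the difference was 0.22 (adjusted p = 0.355). Kidney minus spleen was -0.10 for miR-199a (adjusted p = 0.531) and -0.19 for miR-199a* (adjusted p = 0.415), where again 59.7% of probes were called. Liver minus kidney was -0.43 for miR-199a (adjusted p = 0.0210) and -0.56 for miR-199a* (adjusted p = 0.0320), with 48.8% called. The liver side of this pair again had signals under 10. The place of spleen rested on 1 array. Without klotho(-/-) Spleen 1, miR-199a* in spleen was below the other tissues, with a difference of -0.32, and without klotho(-/-) Spleen 2 it was above them by 0.35. Either fit leaves 1 array in that group, so only the sizes are given.

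Between the genotypes, miR-199a* rose in klotho(-/-) spleen by the pooled limma model, a call that several alternatives did not keep, and neither strand passed the test in lung, kidney or heart. In spleen miR-199a* had signals of 110.9 and 47.2 in klotho(-/-) mice, against 46.7 and 27.3 in wild-type mice, and its share of the summed signal was 1.18 and 0.592% against 0.378 and 0.372%. miR-199a had 78.3 and 33.1 in klotho(-/-) spleen, against 34.1 and 19.3 in wild-type spleen, with shares of 0.831 and 0.415% against 0.276 and 0.262%. In signal, klotho(-/-) Spleen 1 was far above the other 3 arrays for both strands and klotho(-/-) Spleen 2 was close to wild-type Spleen 1. In share of the summed signal, both klotho(-/-) arrays were above both wild-type arrays. After quantile normalization within the tissue, the log2 difference of miR-199a* was 0.61 ± 0.18 (SE, adjusted p = 0.0225 by limma, 95% interval 0.21 to 1.00). Of the 96 probes tested in spleen 7.29% rose and 22.9% fell. For miR-199a the difference was 0.39 ± 0.16 (adjusted p = 0.0828), and with the replicate number as a block its adjusted p was 0.0499.

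The call of miR-199a* in spleen was lost without scaling (0.53, adjusted p = 0.296), with spleen fitted alone (adjusted p = 0.423) and by the methods' t-test (adjusted p = 0.568), and the limma steps made more false calls than nominal on simulated data. The spleen difference also depended on single arrays. Without klotho(-/-) Spleen 1 it was 0.23 for miR-199a*, without klotho(-/-) Spleen 2 it was 1.11, and without wild-type Spleen 1 or 2 it was 0.51 or 0.59. For miR-199a it was 0.04 without klotho(-/-) Spleen 1 and 0.80 without klotho(-/-) Spleen 2. Each of these fits leaves 1 array in a group, so only the sizes are given. The SE was pooled over all 10 groups, and the median absolute log2 difference between the 2 arrays of a group was 0.318 in klotho(-/-) spleen and 0.0649 to 0.118 in the others.

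Other cell type miRNAs differed on the same spleen arrays. For smooth muscle, 2 of 2 listed miRNAs were on the chip, miR-143 and miR-145, and their summed signal was 1029 and 518 in klotho(-/-) spleen, against 615 and 317 in wild-type spleen. The epithelial miR-200 family, with 4 of 5 members on the chip, had 144 and 15.9 against 22.5 and 11.7, and miR-375 of pancreatic islets had 130.1 and 13.0 against 5.42 and 5.80. The endothelial miR-126 pair lay between 46.2 and 96.0 on the 4 arrays, with the genotypes overlapping. Leukocyte miRNAs, with 3 of 4 on the chip, had 258 and 582 against 959 and 583. miR-144 of red cell precursors, 1 of 2 on the chip, had 11.6 and 12.7 against 263 and 339, while all 4 striated muscle miRNAs and the hepatocyte miR-122a were under 10. The array with the highest signal of both miR-199a strands was thus also the one with the highest smooth muscle, epithelial and islet signal and the lowest leukocyte signal. Their part in the miR-199a* result was not tested.

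Outside spleen the differences were small after quantile normalization within the tissue. In lung the difference was -0.14 ± 0.16 for miR-199a (adjusted p = 0.734, 95% interval -0.49 to 0.21) and -0.08 ± 0.18 for miR-199a* (adjusted p = 0.870). There 4.42% of probes rose and 3.54% fell. In kidney it was 0.17 ± 0.16 for miR-199a (adjusted p = 0.762, 95% interval -0.18 to 0.52) and 0.11 ± 0.18 for miR-199a* (adjusted p = 0.826), where 3.3% of probes rose and 4.4% fell. In heart it was -0.07 ± 0.16 for miR-199a (adjusted p = 0.919) and -0.11 ± 0.18 for miR-199a* (adjusted p = 0.858), where 2% rose and 3% fell. The intervals of kidney and lung leave room for changes of either sign. Their SEs were pooled over all 10 groups, klotho(-/-) spleen among them. With kidney fitted alone by limma, the adjusted p was 0.0905 for miR-199a and 0.390 for miR-199a*. In lung the sign depended on the scaling. Median scaling within the tissue gave 0.23 for miR-199a and 0.22 for miR-199a*, and no scaling gave 0.47 and 0.48. In heart, median scaling gave 0.008 for miR-199a*, also turned in sign. None of these passed. In liver, where these probes were not tested and 3.28% of the others rose and 1.64% fell, the values were 0.03 for miR-199a and 0.06 for miR-199a*, on a log2 scale to which 50 had been added and which draws dim probes toward 0. Without any scaling, the mean signal in klotho(-/-) lung over that in wild-type lung was 1.40 for miR-199a and 1.37 for miR-199a*, beside 1.38 for the summed signal of the same arrays. The ratios were 1.67 and 1.97 in liver, beside 1.88 for the summed signal, and 1.86 and 1.79 in kidney, beside 1.56. In heart they were 0.948 and 0.967, beside 1.06, and in spleen 2.09 and 2.14, beside 0.884. The distance between the strands and the summed signal was thus widest in spleen, where the summed signals were 9419 and 7978 on the klotho(-/-) arrays, against 12346 and 7342 on the wild-type arrays.

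**Figure D2:**
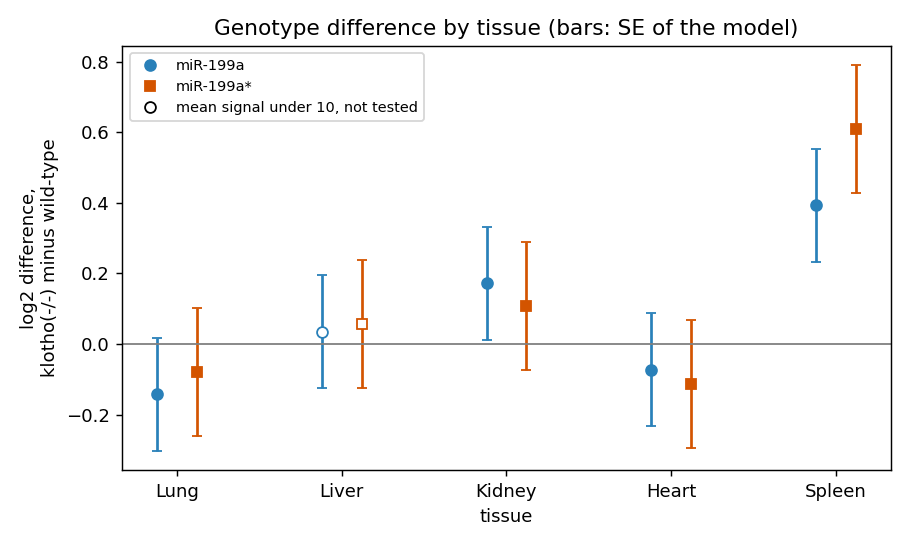
Log2 difference of klotho(-/-) minus wild-type (vertical axis) for miR-199a (circles) and miR-199a* (squares) by tissue, with bars for the SE of the limma model and open symbols where the mean signal was under 10. Only miR-199a* in spleen, at 0.61, passed the threshold, and the lung, kidney and heart values lie between -0.14 and 0.17.

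An F test asked whether the 5 genotype differences were equal, with liver included although both strands had signals under 10 there. It did not pass for miR-199a (F = 1.77, adjusted p = 0.442 by limma) or for miR-199a* (F = 2.57, unadjusted p = 0.0917, adjusted p = 0.306), where 10.9% of the 129 probes passed, so the spleen difference of miR-199a* was not shown to differ from that in the other tissues. Without klotho(-/-) Spleen 2, F was 18.8 for miR-199a and 37.9 for miR-199a*, and without klotho(-/-) Spleen 1 it was 2.57 and 3.33. Either fit leaves 1 array in that group, whose spread then no longer enters the test, so no p-value is given. The mean difference over lung, kidney, heart and spleen was 0.09 ± 0.08 for miR-199a and 0.13 ± 0.09 for miR-199a* (SE), given as values because liver was below the limit. These SEs take the tissues of one mouse as independent.

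The ratio of the strands on the same array needs no scaling between arrays, since the brightness of an array cancels. Its absolute size also depends on the probes, and only its movement between arrays was compared. The miR-199a* probe cannot tell miR-199a* from the Mir199b strand of the same sequence. Whether the miR-199a probe binds the other strand of Mir199b is not known. A movement of the ratio is therefore one of the probe signals, and the part of Mir199b in it was not tested. The log2 ratio of miR-199a over miR-199a* was -0.54 ± 0.02 in lung, -0.56 ± 0.03 in kidney, -0.49 ± 0.03 in spleen and -0.23 ± 0.04 in heart (mean ± SD, n = 4 arrays, both genotypes). The 4 heart arrays had linear ratios of 0.823 to 0.871 and the 12 arrays of lung, kidney and spleen had 0.665 to 0.729, without overlap. The miR-199a signals of heart, 70.7 to 85.1, lay within the 19.3 to 296 of the other 3 tissues. In an exact permutation test of 4 against 4 arrays (two-sided, 70 arrangements, smallest possible p = 0.0286), heart differed from lung, kidney and spleen with p = 0.0286 each, and with 0.0571 after adjustment over 10 tissue pairs, which does not pass. The test does not account for the same mice having given both tissues. The differences were -0.30 for lung minus heart, -0.32 for kidney minus heart and 0.26 for heart minus spleen. Kidney minus spleen was -0.06 and had the same p. In liver the ratio scattered, at -0.33 ± 0.17, with both signals under 10, and liver minus heart was -0.10 (exact permutation p = 0.314).

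**Figure D3:**
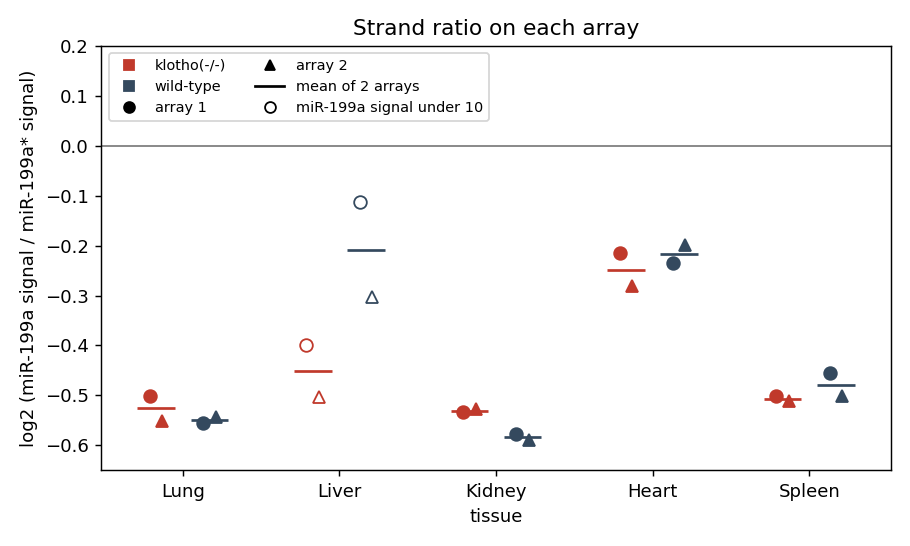
Log2 of the miR-199a signal over the miR-199a* signal (vertical axis) on each array, by tissue, with klotho(-/-) left of wild-type and lines at the means of 2 arrays. The heart arrays lie between -0.28 and -0.20 and those of lung, kidney and spleen between -0.59 and -0.46, while the open liver symbols have miR-199a signals under 10.

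In lung, kidney, heart and spleen the genotypes differed in the strand ratio by at most 0.0530 on the log2 scale. The means of klotho(-/-) and wild-type were -0.53 and -0.55 in lung, -0.53 and -0.58 in kidney, -0.25 and -0.22 in heart and -0.51 and -0.48 in spleen. In liver they were -0.45 and -0.21. Over 5 tissues the difference was -0.05 (exact permutation of genotypes within tissues, two-sided p = 0.231, 7776 arrangements), and without liver it was 0.004 (p = 0.812, 1296 arrangements). These tests take the tissues of one mouse as independent. With whole mice as units there are 6 arrangements, and the smallest possible p is 0.333. The klotho(-/-) spleen arrays, whose miR-199a signals were 78.3 and 33.1, had almost equal ratios, and the strands therefore moved together between these 2 mice.

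Of 19 strand pairs on the chip, 9 had a mean signal of at least 10 for both strands in at least 1 tissue, and 2 of them, miR-199a and miR-140, in lung, kidney, heart and spleen. In miR-199a the ratio varied least between arrays of a tissue, with a mean range of 0.0636 on the log2 scale, against 0.189 to 0.744 in 7 of the other 8 pairs. The tissues compared differed between pairs, and so did brightness. The lowest single signal was 19.3 for miR-199a and 36.2 for miR-142. It was 8.75 for miR-30e, 9.53 for miR-126, 10.6 for let-7d, 10.7 for miR-324, 12.2 for miR-140 and 15.9 for miR-30a. The part of brightness in these ranges was not tested. In the tissues where both strands of a pair reached that signal, the largest genotype difference was 0.0530 for miR-199a and 0.0861 to 0.305 for these 7 pairs. In liver, which is left out here for its dim signals, the miR-199a ratio differed by -0.24. The remaining pair, miR-291a-5p and miR-291a-3p of a cluster known from embryonic stem cells, had single signals near background, the lowest being 2.51 in kidney and 0.915 in heart, and a mean range of 5.35. The tissue means of the miR-199a ratio spanned 0.32, and those of miR-140, a miRNA known for cartilage, spanned 0.45 over the same 4 tissues, with the highest mean in lung. A high ratio in heart was not particular to miR-199a. The log2 ratio of miR-30a-5p over miR-30a-3p was 4.50 to 4.59 in heart, above 4.06 to 4.23 in lung and 4.18 to 4.49 in kidney. For miR-30e over miR-30e*, measured in the same 3 tissues, the highest mean was in kidney.

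**Figure D4:**
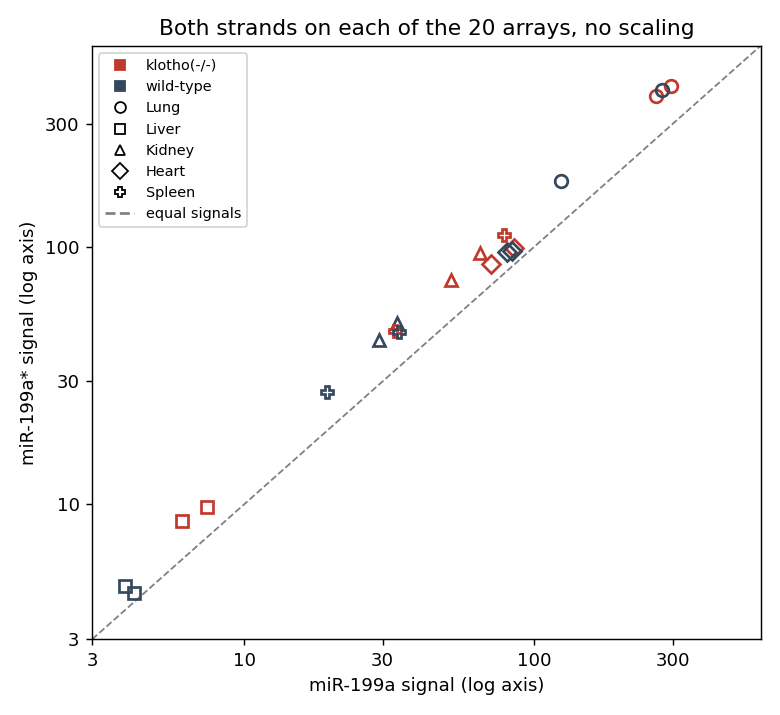
Signal of miR-199a* (vertical axis) against that of miR-199a (horizontal axis) on each of the 20 arrays (arbitrary units, both axes log scale), with colours for genotype, symbols for tissue and a dashed line at equal signals. The points of lung, kidney and spleen run parallel to the line, the heart arrays lie closer to it, and the dim liver arrays scatter.

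Across the 20 arrays the strands were each other's nearest probes, with Pearson's r of 0.966 for the log2 values normalized over all arrays and 0.971 over the 10 group means. The arrays share tissues and the normalization, and the values describe these arrays only. The median r with the 128 other probes was -0.07 for either strand. After its partner, miR-199a was closest to miR-497 (r = 0.894), which has the seed of the miR-15 family, miR-125b (0.882), a relative of the worm miRNA lin-4, miR-23a (0.859) and miR-127 (0.850), which comes from the imprinted Dlk1-Dio3 region. For miR-199a* the nearest were again miR-497 (0.830), miR-127 (0.819), miR-23a (0.812) and miR-125b (0.812). All 4 were brightest in lung and dimmest in liver, as the miR-199a strands were, with mean signals of 227 and 4.51 for miR-497, 417 and 11.6 for miR-125b, 1416 and 46.2 for miR-23a and 13.2 and 0.894 for miR-127. In spleen, their log2 differences of klotho(-/-) minus wild-type were -0.01 for miR-497 (adjusted p = 0.931), 0.32 for miR-125b (adjusted p = 0.110) and 0.29 for miR-23a (adjusted p = 0.0979), none past the threshold, and miR-127 was under the signal limit.

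Of 13 other miRNAs listed as mesenchymal or smooth muscle, 11 were on the chip. In klotho(-/-) spleen 2 of 10 tested rose and 2 fell, where 7.29% of all 96 probes tested rose and 22.9% fell. miR-143 and miR-145, which come from one cluster and are abundant in smooth muscle, rose by 0.77 (adjusted p = 0.00183) and 0.69 (adjusted p = 0.00173) on the log2 scale. miR-140 and miR-140* fell, with differences of -0.26 and -0.41. The median difference of the 10 was 0.14, against 0.05 for the 96 probes tested. In lung, liver and heart none of the 11, 7 and 10 members tested passed in either direction by limma (1, 0 and 0 at an unadjusted p under 0.05), and in kidney, where 4.4% of all probes fell, miR-22 fell and 9 others did not pass. The medians there were 0.02, -0.03, 0.03 and 0.00 for lung, liver, heart and kidney, against 0.01, -0.03, -0.03 and 0.02 for all probes tested.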

How the data were processed

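Small RNA of each tissue had been labelled with one dye and hybridized to the chip, 1 array for each of 20 samples. The authors deposited the intensity of every probe without normalization, used here, and a second table of intensity from which a constant per array had been subtracted. Scanner settings are not given in the sources used here. Groups followed the labels.

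Background was corrected by normexp (limma 3.58.1, R 4.3.3). Signals are these values; for tests an offset of 50 was added, arrays were quantile-normalized within a tissue (over all 20 arrays for tissue levels) and log2 was taken, so fold changes of dim probes are understated. One limma model with 10 groups and a trend was fitted, with 10 residual degrees of freedom. Between the genotypes, probes with a mean signal of at least 10 in the tissue were tested, 61 (liver) to 113 (lung) of them. For tissue levels and the F test, they were the 129 probes with that signal in any tissue. The p-values were adjusted by Benjamini-Hochberg with a threshold of 0.05. Strand ratios used signals without the offset and exact permutation tests. The steps were tested on simulated data and made more false calls than nominal. Precision is limited by 2 arrays per group.

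Between the genotypes, the deviations of arrays of one number had a correlation of 0.230 (lung), 0.548 (liver), 0.475 (kidney), 0.107 (heart) and 0.371 (spleen). All were positive, but those of heart and lung were weak. The labels do not say what mice of one number share. A pairing by number rests on these values only, and a replicate block was an alternative. Named were both strands, the 5 probes with the highest r with each, the mesenchymal list, cell type markers and strand pairs; miR-291a was named after its values were seen. Members and lists were chosen with earlier results of these data known. Alternatives were other scalings, offsets and signal minimums, the second table, blocks, each tissue alone, the methods' t-test and leaving out each array, and the means with and without liver were added after seeing the data.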

Additional observations from a re-analysis of the deposited data

Results flagged for a closer look

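Of 15 sets of 4 arrays looked at, a single array stood apart from the other 3 in 3 sets. Chance alone gives about 1 in 20 for independent values of one group. These sets mix both genotypes and come from the same arrays, so the count cannot be set against that rate. On the log2 scale normalized over all arrays, klotho(-/-) Spleen 1 was high at 7.39 for miR-199a and at 8.17 for miR-199a*. Wild-type Lung 1 was high for miR-199a*, at 7.78, where the other 3 lung arrays shared 7.69 because probes of equal rank have equal values after quantile normalization.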

How the results depend on the processing

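The rise of miR-199a* in klotho(-/-) spleen kept its direction under each alternative run, but it did not pass without scaling (0.53, adjusted p = 0.296), with each tissue fitted alone (0.61, adjusted p = 0.423) or by the methods' t-test (0.61, adjusted p = 0.568), and leaving out one array gave 0.23 to 1.11. For miR-199a in spleen, median scaling gave 0.58 (adjusted p = 0.0199), the replicate block 0.39 (adjusted p = 0.0499), and leaving out one array 0.044 to 0.80. The replicate block changed no other call of the strands. Leaving out one array, F between tissues ran from 1.13 to 18.8 for miR-199a and from 1.57 to 37.9 for miR-199a*. Without scaling, the mean over tissues was 0.32 for miR-199a and 0.36 for miR-199a*. With the main scaling but without the spleen, this mean was -0.01 and -0.03, turned in sign. The methods' t-test could not be computed for miR-199a in kidney, where both pairs of arrays had equal normalized values, and the liver alone could not be fitted for these strands, which are under the minimum there.

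With median scaling over all arrays, miR-199a in kidney (-0.25, adjusted p = 0.0322) and spleen (-0.20, adjusted p = 0.0478) and miR-199a* in heart (0.48, adjusted p = 0.000557) passed against the other tissues. Without scaling, miR-199a in heart did not pass (0.29, adjusted p = 0.121), while miR-199a (-0.40, adjusted p = 0.0202) and miR-199a* (-0.40, adjusted p = 0.0297, reversed in sign) in spleen did. Leaving out one array, the level of miR-199a was -0.32 to -0.21 in kidney and -0.36 to 0.080 in spleen, and that of miR-199a* -0.30 to -0.13 in kidney, 0.21 to 0.38 in heart and -0.32 to 0.35 in spleen. Kidney minus spleen for miR-199a* ran from -0.53 to 0.15, the positive value being that without klotho(-/-) Spleen 1. After quantile normalization within a tissue with the offset, the strand ratio was -0.25 for lung minus heart, -0.11 for kidney minus heart, 0.12 for liver minus heart and -0.14 for lung minus kidney, with both of these last values turned in sign (exact permutation, adjusted p = 0.0408 each). There the offset enters the ratio of dim signals. The causes of the other changes were not tested. Apart from the fits that leave out an array, 241 alternative values of the comparisons neither gained nor lost a call. A value that did not pass, or was not tested, counts among these 241 even where it turned in sign, as in lung. Of the rest, 8 newly passed, 4 no longer passed, 2 moved and 2 passed with the sign turned. For single tissue pairs 72 neither gained nor lost a call, 8 newly passed, 1 no longer passed and 1 passed with the sign turned.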
